A study of Mus musculus with 4 samples.

Results

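Integrins, laminins and the genes of the hemidesmosome were examined on whole-transcript arrays of cultured mouse keratinocytes, the cells that build the epidermis. Members were taken by gene symbol: every gene with an integrin alpha or beta symbol, every laminin chain, and Dst, Plec, Cd151, Fermt1, Fermt2, Nid1, Nid2 and Hspg2. This found 48 of the 22180 genes tested. Of the 48, 36 were adhesion genes, 8 were leukocyte integrins kept as background, and 4 matched by name without encoding an integrin subunit. Itga10 also belongs to these families and was not analysed here.

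Glut1-deficient cells came from Glut1 fl/fl K14 Cre mice, in which Cre is driven by the keratin 14 promoter of basal keratinocytes. WT cells came from Glut1 fl/fl mice without Cre, so both groups carried the floxed alleles and the C57BL/6J background. All mice were 1 week old, with 4 mice per genotype, and each of the 2 arrays per genotype held cells from 2 pooled plates. Cells of both genotypes grew for 3 days in a low-calcium keratinocyte medium with EGF and insulin, were replated onto collagen in equal numbers and were lysed 1 day after that. Each lysate held 1000000 cells in the Glut1-deficient group and 1500000 in the WT group. The values are log2 intensities, and array medians lay between 4.07 and 4.11. With 2 arrays per genotype, the number of arrays limits the precision.

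Integrins are alpha-beta pairs that bind extracellular matrix outside the cell and couple to the cytoskeleton inside it. In basal epidermis, the alpha6-beta4 integrin binds laminin-332 and is joined to keratin filaments by plectin and the epithelial product of Dst, which together form the hemidesmosome. The beta1 integrins, paired with alpha2 for collagen, alpha3 for laminin or alpha5 for fibronectin, form focal adhesions, where kindlins and talin switch the beta subunit to its active state.

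Keratinocyte identity was checked first. Krt14, the keratin of basal keratinocytes, read 12.15 and 12.21 on the Glut1-deficient arrays, against 12.56 and 12.54 on the WT arrays. Trp63, the epidermal lineage factor p63, read 8.44 and 8.51 on the Glut1-deficient arrays, against 8.73 and 8.80 on the WT arrays. Krt15, the other basal marker analysed, was low and overlapped between genotypes, and Krt5 was not analysed here. The targeted gene Slc2a1 has 2 rows. The brighter read 11.01 on both Glut1-deficient arrays, against 11.13 and 11.05 on the WT arrays, with -0.07 as the log2 fold change (limma adjusted p = 0.675). The dimmer read 4.80 and 4.44 on the Glut1-deficient arrays, against 5.18 and 5.09 on the WT arrays. The sources used here do not place the deleted exons or the probes, so neither row checks the labels, and the genotype is given as labelled.

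Among the 36 adhesion genes, 1 rose, the laminin chain gene Lama2, and 1 fell, the integrin gene Itgb8 (limma, Benjamini-Hochberg adjusted p under 0.05 over all genes). The other 34 did not pass. Over all genes, 1.79% rose and 1.05% fell, so counts of 1 and 1 in 36 are near the background. Smaller differences were common. At unadjusted p under 0.05 lay 21 of the 36 genes (58.3%), 9 higher and 12 lower in Glut1-deficient cells, against 22.2% of all genes. In 31 of the 36 (86.1%) both Glut1-deficient arrays lay on the same side of both WT arrays, 14 higher and 17 lower, against 53.2% of all genes. The median log2 fold change of the 36 was -0.04, and that of all genes -0.01. Of the 27 whose mean lay above the median of all genes (4.76), 19 had unadjusted p under 0.05 (70.4%) and 26 did not overlap (96.3%), against 32.4% and 68.2% of all genes above that level.

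**Figure D1:**
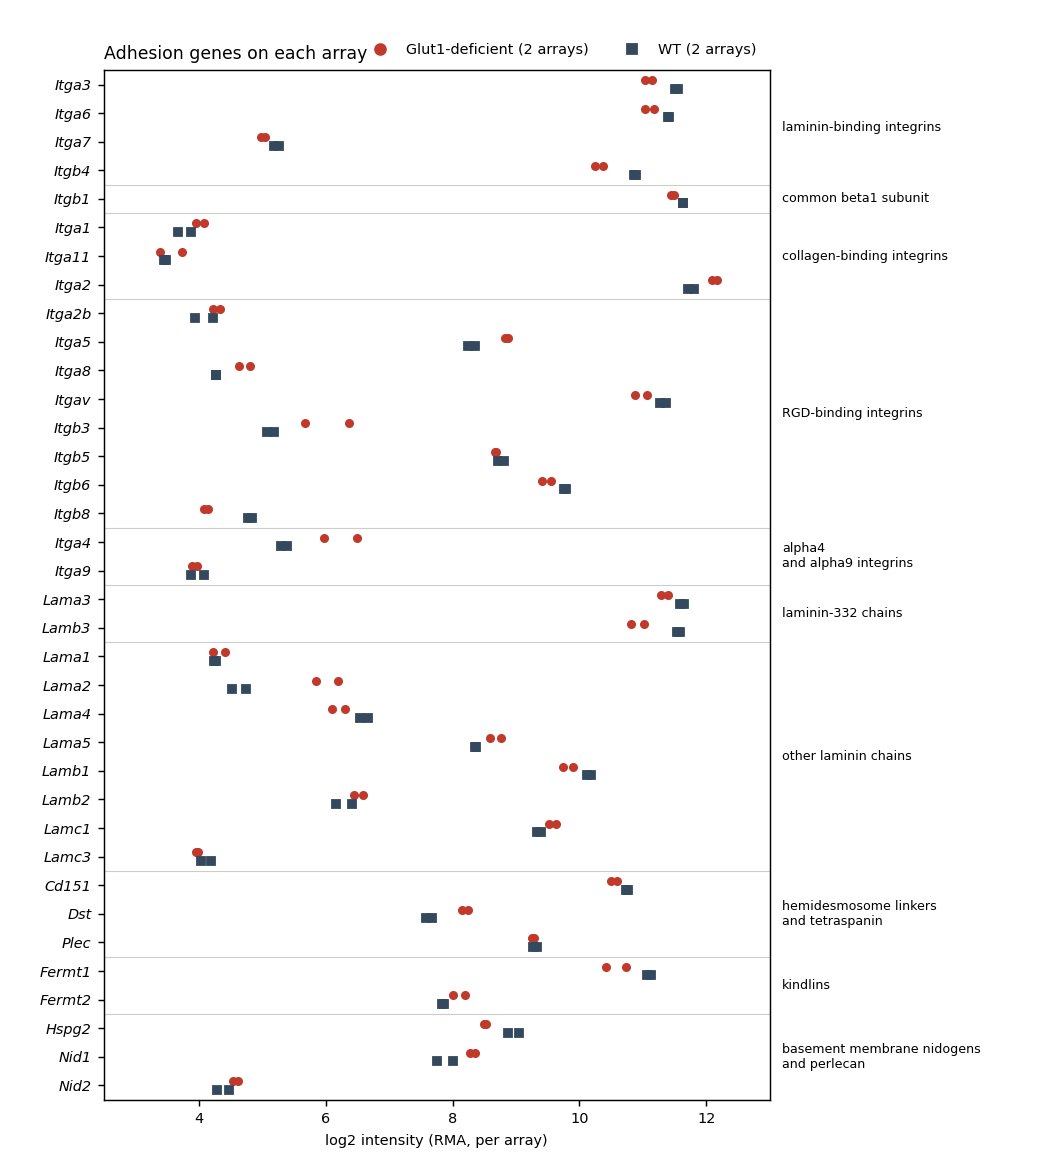
Log2 intensity (x axis, RMA) of the 36 adhesion genes (rows, grouped by role) on each of the 2 Glut1-deficient arrays (red circles) and 2 WT arrays (dark squares). The arrays of the genotypes overlap for Itga11, Itga2b, Itga9, Lama1 and Plec and lie apart for the other 31 genes.

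Lama2 encodes the alpha2 laminin chain, known from the basement membranes of muscle and nerve. It read 6.18 and 5.85 on the Glut1-deficient arrays, against 4.74 and 4.52 on the WT arrays. Both Glut1-deficient values lay above both WT values, a 2.62-fold rise (log2 fold change 1.39, SE 0.152, limma adjusted p = 0.0281). Itgb8, which pairs with alphav and is known for releasing TGF-beta from its latent complex, read 4.08 and 4.15 on the Glut1-deficient arrays, against 4.78 and 4.83 on the WT arrays. The arrays did not overlap, and Itgb8 was 1.61-fold lower (log2 fold change -0.69, SE 0.087, limma adjusted p = 0.0348). Its mean lay below the median level of all genes. Neither call held with any 1 array left out or with all rows of the table tested, fits in which 0 of all genes passed in limma. With an array left out, the log2 fold changes lay between 1.22 and 1.56 for Lama2 and between -0.73 and -0.65 for Itgb8. In bulk RNA, fewer cells of a type and less RNA per cell cannot be told apart.

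The bases before the annotated starts of 4 genes are shown from the RefSeq promoter table (GRCm38.p6): Lama2 and Itgb8, because they passed, and Lamb3 and Itga5, as a lower and a higher example of the genes just short of the threshold. Each run holds the 250 bases that end just before the start, read 5′ to 3′ on the gene's strand. Capitals mark matches to a searched motif.
Lama2, chr10:27616943-27617192, minus strand: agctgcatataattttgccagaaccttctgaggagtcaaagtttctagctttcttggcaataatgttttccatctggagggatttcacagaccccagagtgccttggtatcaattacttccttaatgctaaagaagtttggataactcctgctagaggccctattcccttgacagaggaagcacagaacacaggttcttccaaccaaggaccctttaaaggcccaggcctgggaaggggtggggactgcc
Itgb8, chr12:119238277-119238526, minus strand: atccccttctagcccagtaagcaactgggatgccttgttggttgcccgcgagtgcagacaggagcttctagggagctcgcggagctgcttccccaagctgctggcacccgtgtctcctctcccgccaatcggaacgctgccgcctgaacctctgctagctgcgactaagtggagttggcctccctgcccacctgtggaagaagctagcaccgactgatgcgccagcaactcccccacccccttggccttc
Lamb3, chr1:193301744-193301993, plus strand, the first of 2 annotated starts: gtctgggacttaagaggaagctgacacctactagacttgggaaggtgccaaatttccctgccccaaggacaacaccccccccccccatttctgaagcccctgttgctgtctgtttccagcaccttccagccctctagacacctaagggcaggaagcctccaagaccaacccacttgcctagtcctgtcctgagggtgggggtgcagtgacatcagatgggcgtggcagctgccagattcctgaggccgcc
Itga5, chr15:103366792-103367041, minus strand: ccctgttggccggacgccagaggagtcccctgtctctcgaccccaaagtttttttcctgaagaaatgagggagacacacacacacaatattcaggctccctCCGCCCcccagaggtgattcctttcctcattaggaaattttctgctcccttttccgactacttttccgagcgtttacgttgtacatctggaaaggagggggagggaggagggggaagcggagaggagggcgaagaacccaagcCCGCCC
The motifs searched on both strands of such windows were the AP-1 site TGANTCA, the composite CHOP and ATF4 site TGATGCAA, and the GC box GGGCGG. Entries existed for 25 of the 36 adhesion genes, in 30 windows. The AP-1 letters were in 0 of these 30 windows and in 6.75% of all 32851 windows, and the composite site was in 0 of 30 and 0.791% of all. A GC box was in 14 of 30 (46.7%), against 32.7% of all windows. It occurred with genes on either side of 0, among them Itga5, Dst and Nid1 with positive and Itga3, Fermt1 and Hspg2 with negative log2 fold changes. Itga5 held it at 2 places, whereas the windows of Lama2, Itgb8 and Lamb3 shown here held none of the searched motifs. A match describes letters only.

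The receptors and ligand of the hemidesmosome had lower values in Glut1-deficient cells, without passing the test. Itgb4, the beta subunit that defines hemidesmosomes, read 10.24 and 10.37 on the Glut1-deficient arrays, against 10.89 and 10.87 on the WT arrays (log2 fold change -0.57, limma adjusted p = 0.0531). Its partner Itga6 read 11.04 and 11.17 on the Glut1-deficient arrays, against 11.42 and 11.40 on the WT arrays (-0.31, limma adjusted p = 0.153). For both subunits the Glut1-deficient arrays were the lower ones. Itga3, the laminin-binding partner of beta1, read 11.04 and 11.15 on the Glut1-deficient arrays, against 11.50 and 11.55 on the WT arrays (-0.43, limma adjusted p = 0.0808). Itga7, a laminin receptor subunit best known from muscle, was at -0.21 (limma adjusted p = 0.254). All 4 laminin-binding subunits thus had arrays that did not overlap, each lower in Glut1-deficient cells, with a median of -0.37 and 0 past the test; all 4 lay above the median level, where 68.2% of all genes did not overlap. Itgb1, shared by most of these pairs, read 11.45 and 11.50 on the Glut1-deficient arrays, against 11.63 and 11.64 on the WT arrays. That log2 fold change of -0.16 has a 95% interval of -0.37 to 0.06.

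Lama3 and Lamb3 encode chains of laminin-332, the main laminin that keratinocytes lay down. Lamb3 read 10.82 and 11.01 on the Glut1-deficient arrays, against 11.54 and 11.59 on the WT arrays (log2 fold change -0.65, limma adjusted p = 0.0533). Lama3 read 11.29 and 11.40 on the Glut1-deficient arrays, against 11.59 and 11.65 on the WT arrays (-0.27, limma adjusted p = 0.176). Both genes had their lower values in Glut1-deficient cells. The intervals of the log2 fold changes were -0.92 to -0.38 for Lamb3 and -0.51 to -0.04 for Lama3.

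Dst and Plec, the linkers on the cytoplasmic side, did not share this direction, whereas the tetraspanin Cd151 was lower without passing the test. Dst, whose epithelial product joins beta4 to keratins and whose other products act in nerve and muscle, read 8.24 and 8.15 on the Glut1-deficient arrays, against 7.67 and 7.58 on the WT arrays. Its arrays were higher in Glut1-deficient cells without overlap (log2 fold change 0.57, limma adjusted p = 0.0527), and the files do not say which product the row reads. Plec, encoding plectin, read 9.26 and 9.28 on the Glut1-deficient arrays, against 9.27 and 9.33 on the WT arrays. The genotypes overlapped for Plec, with a 95% interval of the log2 fold change from -0.25 to 0.19. Cd151, a tetraspanin that associates with the laminin-binding integrins, read 10.49 and 10.59 on the Glut1-deficient arrays, against 10.74 and 10.76 on the WT arrays (-0.21, limma adjusted p = 0.255).

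**Figure D2:**
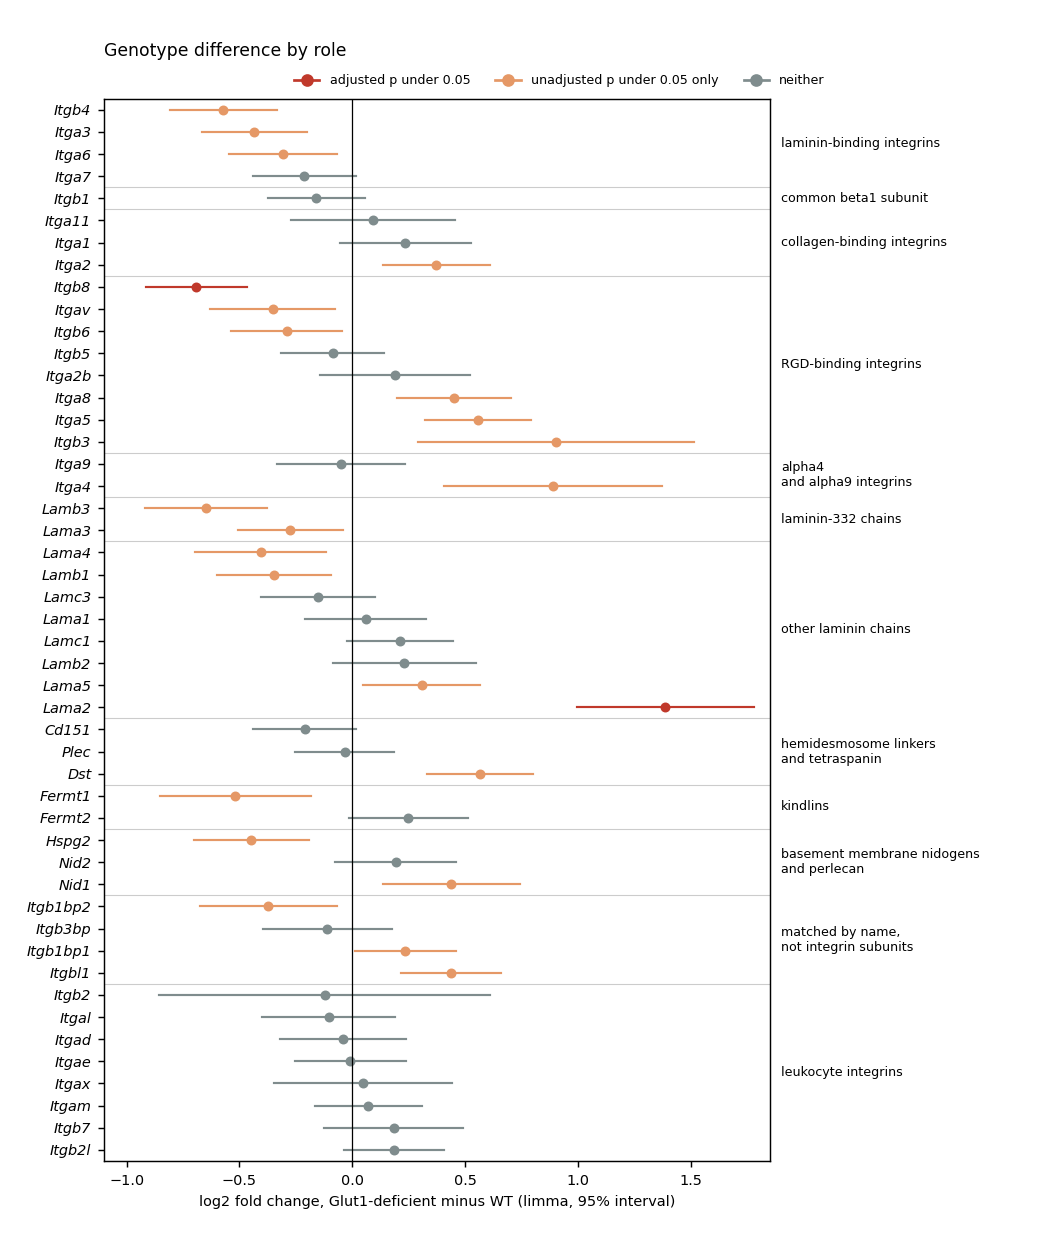
Log2 fold change of all 48 matched genes, Glut1-deficient minus WT (x axis), with the 95% interval of limma as bars, grouped by role. Lama2 lies highest at 1.39 and Itgb8 lowest at -0.69, and these are the 2 genes past the adjusted threshold. The laminin-binding subunits all lie below 0, and the leukocyte integrins all have intervals that include 0.

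The main collagen and fibronectin receptor subunits of keratinocytes had higher values in Glut1-deficient cells, without passing the test. Itga2, the collagen-binding partner of beta1, read 12.09 and 12.17 on the Glut1-deficient arrays, against 11.71 and 11.81 on the WT arrays (log2 fold change 0.37, limma adjusted p = 0.108). Of the other collagen-binding subunits, Itga1 had a log2 fold change of 0.23, and Itga11, with overlapping arrays, of 0.09. Itga5, the fibronectin receptor subunit that keratinocytes raise when they migrate, read 8.83 and 8.87 on the Glut1-deficient arrays, against 8.24 and 8.35 on the WT arrays (0.56, limma adjusted p = 0.0533). Thus Itga2 and Itga5 were higher on both Glut1-deficient arrays, while their common partner Itgb1 was lower there, and 0 of these 3 passed.

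Integrins built on alphav divided by beta subunit. Itgav itself read 10.87 and 11.06 on the Glut1-deficient arrays, against 11.37 and 11.27 on the WT arrays (log2 fold change -0.35, limma adjusted p = 0.153). A second, dimmer row of Itgav overlapped between genotypes, with a log2 fold change of -0.20. Itgb6, its epithelial partner and an activator of latent TGF-beta like Itgb8, read 9.41 and 9.55 on the Glut1-deficient arrays, against 9.79 and 9.75 on the WT arrays (-0.29, limma adjusted p = 0.174). Itgb5, which binds vitronectin, read 8.67 and 8.68 on the Glut1-deficient arrays, against 8.81 and 8.71 on the WT arrays. The log2 fold change of Itgb5 was -0.09, with a 95% interval of -0.32 to 0.14. In either direction, arrays did not overlap for 53.2% of all genes and 68.2% of those above the median level. Itgav, Itgb5, Itgb6 and Itgb8 each had both Glut1-deficient arrays below both WT arrays. By contrast Itgb3, the vitronectin receptor subunit of platelets, osteoclasts and mesenchymal cells, read 6.37 and 5.68 on the Glut1-deficient arrays, against 5.18 and 5.06 on the WT arrays (0.90, SE 0.237, limma adjusted p = 0.120). The 2 Glut1-deficient values of Itgb3 differed more from each other than the lower of them did from the WT mean. Itga8, a subunit known from mesenchyme, read 4.64 and 4.80 on the Glut1-deficient arrays and 4.27 on both WT arrays (0.45, limma adjusted p = 0.0882). Itga2b, the platelet subunit, overlapped between genotypes. In all, 0 of the 8 RGD-binding subunits rose, Itgb8 fell and 7 did not pass.

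Itga4, which pairs with beta1 or beta7 to bind Vcam1 and fibronectin, read 6.49 and 5.97 on the Glut1-deficient arrays, against 5.29 and 5.38 on the WT arrays. Glut1-deficient array 1 was the highest, and the genotypes did not overlap (log2 fold change 0.89, SE 0.187, limma adjusted p = 0.0823). Itga9, a related subunit, overlapped, with a log2 fold change of -0.05.

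Laminin chains outside laminin-332 differed in sign, and Lama2, described above, was the 1 that passed. Lama5, Lamb1 and Lamc1 encode laminin-511, the second major laminin of the epidermal basement membrane. Lama5 read 8.76 and 8.58 on the Glut1-deficient arrays, against 8.37 and 8.35 on the WT arrays (log2 fold change 0.31, limma adjusted p = 0.172). Lamb1 read 9.89 and 9.74 on the Glut1-deficient arrays, against 10.19 and 10.13 on the WT arrays (-0.35, limma adjusted p = 0.137). The chains of this 1 trimer therefore differed in sign, and Lamc1 was at 0.21 with an interval of -0.02 to 0.44. Lama4, a chain of vessel and mesenchymal laminins, read 6.30 and 6.10 on the Glut1-deficient arrays, against 6.53 and 6.67 on the WT arrays (-0.41, limma adjusted p = 0.133). Lama2 and Lama4, both known from mesenchymal tissue, thus had opposite signs. Lamb2 was at 0.23, Lamc3 at -0.15 and Lama1 at 0.06, none of them past the test.

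The basement membrane linkers also differed in sign. Hspg2, which encodes the proteoglycan perlecan, read 8.53 and 8.49 on the Glut1-deficient arrays, against 9.04 and 8.88 on the WT arrays (log2 fold change -0.45, limma adjusted p = 0.0909). Nid1, the nidogen that bridges laminin and collagen IV, read 8.36 and 8.27 on the Glut1-deficient arrays, against 7.75 and 7.998 on the WT arrays (0.44, limma adjusted p = 0.122). A second, dimmer row of Nid1 was at 0.35, the same sign. Nid2 had a log2 fold change of 0.19.

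Kindlins, the intracellular activators of beta subunits, split as well. Fermt1, the epithelial kindlin whose loss causes Kindler syndrome in humans, read 10.42 and 10.73 on the Glut1-deficient arrays, against 11.06 and 11.13 on the WT arrays (log2 fold change -0.52, limma adjusted p = 0.110). Fermt2, the widely expressed kindlin, read 8.19 and 8.004 on the Glut1-deficient arrays, against 7.87 and 7.83 on the WT arrays (0.25, limma adjusted p = 0.248). Neither gene overlapped between genotypes, and the sign differed between them.

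The leukocyte integrins served as background. All 8 (Itgad, Itgae, Itgal, Itgam, Itgax, Itgb2, Itgb2l and Itgb7) lay below the median level of all genes, with values from 2.69 to 4.42 over the 4 arrays. Their log2 fold changes ran from -0.12 to 0.18 with a median of 0.02, and 0 of 8 passed in limma, with 0 at unadjusted p under 0.05. Only Itgb2l and Itgb7 of the 8 (25%) had arrays that did not overlap, against 38.2% of all genes below the median level. Of the name matches, Itgbl1, a secreted protein with integrin-like repeats, was at 0.44, Itgb1bp1, which binds the beta1 tail, at 0.24, Itgb1bp2, the muscle protein melusin, at -0.37, and Itgb3bp, a centromere protein, at -0.11. None of these 4 passed (limma adjusted p between 0.073 and 0.623). A second, dimmer row of Itgb1bp1 was at -0.15, the opposite sign.

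Markers of other cell types differed between the genotypes on the same arrays. Of 12 fibroblast markers, 11 had positive log2 fold changes and 1 rose, Twist2, with a median of 0.96. Fibroblast signal summed over the list was 1727 and 1092 on the Glut1-deficient arrays, against 972 and 993 on the WT arrays, in linear intensity units. Without Fbln2, the 1 marker with a negative log2 fold change, the sums were 1271 and 741 on the Glut1-deficient arrays, against 371 and 363 on the WT arrays. Of 8 melanocyte markers, Dct, Tyrp1, Pmel and Mlana rose and 4 did not pass (list median 0.57), with sums of 963 and 1029 on the Glut1-deficient arrays, against 471 and 378 on the WT arrays. Leukocyte markers summed to 395 and 401 on the Glut1-deficient arrays, against 398 and 405 on the WT arrays, most of it from Cd68. Log2 values of Cd68 were 8.22 and 8.24 on the Glut1-deficient arrays, against 8.16 and 8.23 on the WT arrays. Of the 8 leukocyte markers, 6 had negative log2 fold changes and 0 passed limma's test. Csf1r and Lyz2, the 2 at unadjusted p under 0.05, were both lower in Glut1-deficient cells. Of 6 endothelial markers, 4 had positive log2 fold changes and 2 negative ones, Pecam1 and Cdh5, with a list median of 0.10. Kdr rose, and Tek, Cldn5 and Emcn were at 0.08, 0.11 and 0.14 without passing. Endothelial sums were 286 and 266 on the Glut1-deficient arrays, against 120 and 122 on the WT arrays. Without Kdr, the 5 others summed to 75.0 and 72.9 on the Glut1-deficient arrays, against 86.3 and 77.1 on the WT arrays. Smooth muscle markers had a median of -0.37 over 5 genes, of which Acta2 fell, and sums of 455 and 491 on the Glut1-deficient arrays, against 770 and 732 on the WT arrays, most of it from Acta2. Both Schwann cell markers analysed overlapped between genotypes. Of 6 suprabasal keratinocyte markers, Ivl fell and 5 did not pass.

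Fibroblast markers stood 1.19 above the WT mean on Glut1-deficient array 1 and 0.69 above it on array 2, as list medians. Itga4 stood 1.15 and 0.63 above its WT mean on those arrays, Itgb3 1.25 and 0.56, and Lama2 1.56 and 1.22. Dst stood 0.61 and 0.52 above its WT mean and Lama5 0.40 and 0.22. Of the 14 adhesion genes higher on both Glut1-deficient arrays, 11 stood further above the WT mean on array 1. The other 3 stood further above it on array 2: Itga5 at 0.54 and 0.58, Itga2 at 0.33 and 0.41, and Itga8, known from mesenchyme, at 0.37 and 0.53. Lower genes also lay at unequal distances. Lamb3 (-0.75 and -0.55) and Fermt1 (-0.67 and -0.36) were further below on array 1. Lama4 (-0.31 and -0.51) and Lamb1 (-0.27 and -0.42) were further below on array 2. The share of all genes further from the WT mean on array 1 was not worked out, so these counts have no background. Melanocyte markers had list medians of 0.62 and 0.61 on the 2 arrays. The part of other cell types in the differences of the adhesion genes was not tested.

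**Figure D3:**
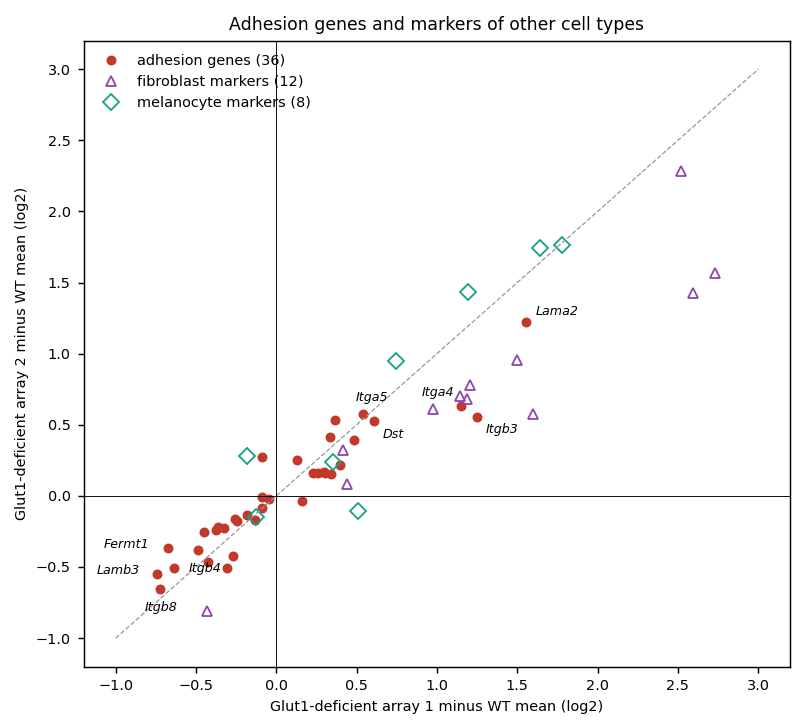
Difference from the WT mean (log2) on Glut1-deficient array 1 (x axis) and array 2 (y axis) for the 36 adhesion genes (red), 12 fibroblast markers (triangles) and 8 melanocyte markers (diamonds); the dashed line marks equal values. Itga4 and Itgb3 lie below the line with most fibroblast markers, while Itga5 lies close to it.

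Genes that act with these receptors were taken from 3 lists. Of 21 genes of the epidermal basement membrane and its anchorage, 0 rose, 2 fell and 19 did not pass, with a median of -0.30. Among all genes, 1.79% rose and 1.05% fell. Bcam, a laminin-binding adhesion molecule, read 6.59 and 6.93 on the Glut1-deficient arrays, against 7.70 and 7.75 on the WT arrays, 1.95-fold lower (limma adjusted p = 0.0429). Bmp1, a protease that cleaves laminin-332 and procollagen VII, read 8.61 and 8.70 on the Glut1-deficient arrays, against 9.35 and 9.38 on the WT arrays, 1.63-fold lower (limma adjusted p = 0.0340). For both genes the genotypes did not overlap. Col17a1, the transmembrane collagen of hemidesmosomes, was at -0.73 (limma adjusted p = 0.0576), and Col7a1, the collagen of anchoring fibrils, was at -0.54 (limma adjusted p = 0.0578). In this list 13 of 21 genes had unadjusted p under 0.05, all of them lower, against 22.2% of all genes and 32.4% of genes above the median level, where 17 of the 21 lay. Of the collagen IV genes, Col4a1, Col4a2 and Col4a5 were at 0.09, 0.08 and 0.11, and Col4a6 at -0.30.

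Of 13 integrin ligands other than laminins, 0 rose, 2 fell and 11 did not pass, with a median of -0.11. Over all genes, 1.79% rose and 1.05% fell. Tgfbi, a secreted collagen-associated ligand, read 6.59 and 7.27 on the Glut1-deficient arrays, against 8.89 and 8.64 on the WT arrays (limma adjusted p = 0.0390). Thbs1, encoding thrombospondin-1, read 9.85 and 10.59 on the Glut1-deficient arrays, against 12.07 and 12.01 on the WT arrays (limma adjusted p = 0.0401). The log2 fold changes of Tgfbi and Thbs1 were -1.83 and -1.82, further below 0 than that of any of the 36 adhesion genes. Vcam1, a ligand of the alpha4 integrins that fibroblasts can express, was at 1.44 (limma adjusted p = 0.0576), and Icam1, a ligand of leukocyte integrins, at -0.62 (limma adjusted p = 0.0758). Fn1, encoding fibronectin, was at 0.28 and did not pass.

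Focal adhesion and integrin signalling genes differed in sign, with a median of 0.01. Of 27 analysed, 1 rose, 0 fell and 26 did not pass, where 1.79% of all genes rose and 1.05% fell. Of the 27, 25 lay above the median level of all genes. At unadjusted p under 0.05 in limma lay 3 higher and 4 lower genes, against 22.2% of all genes and 32.4% of those above the median level. Arrays did not overlap for 8 higher and 7 lower genes, against 53.2% of all genes and 68.2% of those above the median level. Tgfb1i1, encoding the paxillin relative Hic-5, read 7.63 and 7.40 on the Glut1-deficient arrays, against 6.56 and 6.51 on the WT arrays, a 1.97-fold rise (limma adjusted p = 0.0297). Bcar1, the adaptor p130Cas, was at -0.56 and Tns4, an epithelial tensin, at -0.52, and neither passed (limma adjusted p = 0.0599 and 0.0578). Kank1, which links talin to cortical microtubule sites, was at 0.35. The 2 talin genes, Tln1 and Tln2, were at -0.16 and 0.04, paxillin (Pxn) at 0.01 and vinculin (Vcl) at -0.21. The calls of Bcam, Bmp1, Tgfbi, Thbs1 and Tgfb1i1 did not hold with any 1 array left out or with all rows tested, fits in which 0 of all genes passed in limma (2948 to 4627 at unadjusted p under 0.05 with an array left out, and 6694 with all rows). With an array left out, the log2 fold change lay between -1.14 and -0.79 for Bcam, between -0.75 and -0.66 for Bmp1 and between 0.864 and 1.099 for Tgfb1i1. It lay between -2.18 and -1.49 for Tgfbi and between -2.19 and -1.45 for Thbs1.

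**Figure D4:**
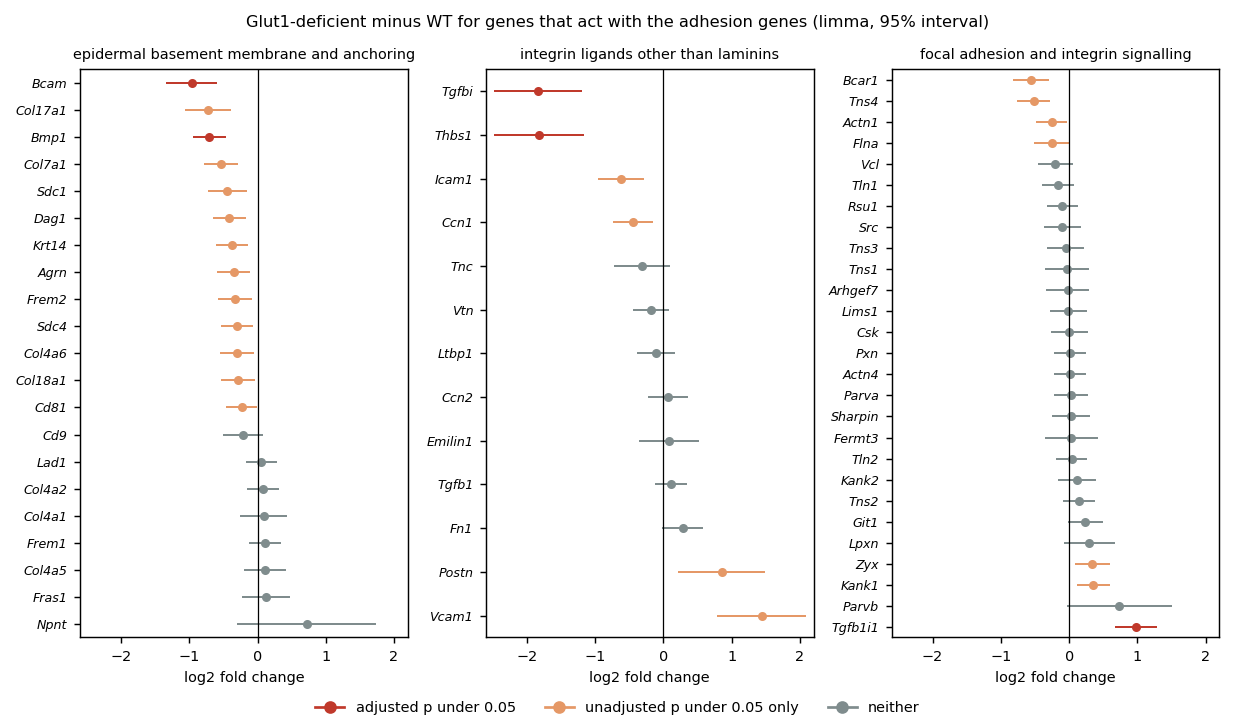
Log2 fold change, Glut1-deficient minus WT (x axis), with limma's 95% interval for 21 basement membrane and anchoring genes, 13 other integrin ligands and 27 focal adhesion genes. Bcam, Bmp1, Tgfbi and Thbs1 fell and Tgfb1i1 rose.

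How many adhesion genes pass depends on how the variance is modelled. When it was allowed to follow intensity, 8 of the 36 rose (6.06% of all genes) and 13 fell (5.98% of all genes). Those that rose were Itga2, Itga4, Itga5, Itgb3, Lama2, Lama5, Nid1 and Dst. Those that fell were Itga3, Itga6, Itgav, Itgb1, Itgb4, Itgb6, Itgb8, Lama3, Lamb1, Lamb3, Cd151, Fermt1 and Hspg2. At an adjusted p under 0.10 without that trend, 5 of the 36 were higher (4.62% of all genes) and 5 lower (3.75% of all genes). The added ones were Dst, Itga4, Itga5 and Itga8 on the higher side and Hspg2, Itga3, Itgb4 and Lamb3 on the lower side.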

How the data were processed

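RNA of 4 arrays, 2 Glut1-deficient and 2 WT, was analysed. The deposited values are log2 intensities per transcript cluster, which the authors summarised by RMA; the submitters' processing notes list RMA and Affymetrix Expression Console, without versions. RMA sets all arrays to 1 distribution, so differences are relative to other genes, and a single gene's level is not set against another's.

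Rows with exactly 1 gene symbol in the platform annotation (23521 of 41345) entered, and where several shared a gene the brightest on average was kept, giving 22180 genes. All 48 member identifiers matched the GRCm38.p6 gene table. Log2 fold changes, Glut1-deficient minus WT, and two-sided p-values came from lmFit and eBayes (limma 3.58.1, R 4.3.3) with 2 residual degrees of freedom. They were adjusted by Benjamini-Hochberg over all genes, and the verbs rose and fell are kept for genes under 0.05 in the fit named. The fit was tested on simulated data. Errors are SE, and intervals 95%. With 2 against 2 arrays, no exact permutation p can be below 0.333, so none is given. The spread behind each p-value is that between pools labelled as biological replicates, which may be partly technical.

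Members and lists were chosen with earlier results of these data known. Array values are given for members past the threshold or at unadjusted p under 0.05, and for fixed keratinocyte subunits and linkers; from partner lists, genes past the threshold and up to 4 with the smallest p, plus others named after their values were seen. Alternatives changed the variance model, normalization, filter, rows, threshold, replicate block and arrays included. Figures used matplotlib 3.10.9.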

Additional observations from a re-analysis of the deposited data

How the results depend on the processing

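Across 36 adhesion genes, 1 rise and 1 fall were called as reported. With an intensity trend, without or with robust estimation, 8 rose and 13 fell. Among genes above the median level, 6 rose and 7 fell of 27 tested, and the median moved to -0.16. In that fit 2327 of all 11090 genes tested passed in limma. Median centring gave 2 rises and cyclic loess 3, with 1 fall in each. Over all 22180 genes, 726 passed with median centring and 706 with cyclic loess, against 630 in the reported fit. At adjusted p under 0.10, 5 were higher and 5 lower. With all 41345 rows tested, 0 members passed in limma (21 at unadjusted p under 0.05, as in the reported fit), and with any 1 array left out also 0 and 0 (12 to 20 at unadjusted p under 0.05); in these fits 0 of all genes passed. With the replicate number as a block, 0 rose and 0 fell, and over all genes 37 passed, against 630 without it; Lama2 then had adjusted p = 0.0527 and Itgb8 0.0894 in limma, and the 5 partner genes called (Bcam, Bmp1, Tgfbi, Thbs1 and Tgfb1i1) did not pass either. Same-numbered arrays of the genotypes did not deviate together (r = -0.03 over genes). With 2 arrays per genotype, this cannot settle whether the numbers pair them. The block left the log2 fold changes of Lama2 and Itgb8 at 1.39 and -0.69, so these 2 calls were not lost to smaller differences. The mean of a gene's rows changed neither count. The members' median lay between -0.09 and 0.01 over the arrays left out. Of 30 genes followed, 25 of them members with unadjusted p under 0.05 or named as fixed keratinocyte genes, none changed sign under any of these alternatives. Among the other adhesion genes, 3 did with 1 array left out: Itga11 (-0.09 to 0.27), Itga9 (-0.16 to 0.06) and Lama1 (-0.04 to 0.16). The lack of detection calls leaves the dim rows, such as Itgb8, without a limit of detection, and 2 arrays per genotype limit all calls.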
